A study of Mus musculus with 63 samples.

Results

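The comparison set hearts of 21-day-old mice (P21, 3 weeks) that carried a mutated human mitofusin 2 (Mfn2AA) against hearts that carried the normal human mitofusin 2 (Mfn2wt). Its members were chosen by their titles: 6 Mfn2AA and 6 Mfn2wt libraries made in the P21 library batch, 12 of 63 libraries in the series. All animals had the FVB/N strain background. The genotype label of Mfn2AA is overexpression of human Mfn2 with T111A and S442A, a threonine and a serine replaced by alanine, and that of Mfn2wt is overexpression of human Mfn2. Beside them stood 5 tet-off control hearts (tetoff) and 6 nontransgenic hearts (ntg) of the same age and batch. The labels name neither the promoter of the transgenes nor the sex of the animals, and they do not say whether Mfn2wt hearts also carried the tet-off driver. RNA came from frozen ventricular apexes, labelled as left ventricle, and polyadenylated RNA was sequenced from single ends without strand information.

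Mitofusin 2 is a GTPase of the outer mitochondrial membrane that joins mitochondria, and in damaged mitochondria it is a substrate of the kinase PINK1. Phosphorylated mitofusin 2 binds the ubiquitin ligase Parkin, which marks mitochondria for removal by autophagy (mitophagy). In heart muscle this exchange of mitochondria accompanies the change after birth to the oxidation of fatty acids. Mitochondria in difficulty can also raise the integrated stress response, in which the transcription factor ATF4 turns on genes for amino acid synthesis and transport, tRNA charging and secreted hormones such as FGF21 and GDF15.

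Levels are given as CPM, the count of a gene scaled to the size of its library (by TMM). A gene was called at an adjusted p under 0.05 in edgeR's quasi-likelihood test over 13585 genes, with errors of log2 fold changes as SE. Of these, 1862 (13.7%) were called between Mfn2AA and Mfn2wt, 1021 (7.52%) higher and 841 (6.19%) lower in Mfn2AA, and 291 (2.14%) differed at least 2-fold. In 777 genes (5.72%) no Mfn2AA library overlapped a Mfn2wt library, and 702 of those genes were also called. The share of higher calls was 54.8% on counts and 75.7% with limma on log2(FPKM + 1), which gave 1284 higher and 412 lower calls. The median log2 difference of all genes was -0.01 on counts and 0.04 on FPKM. The sample labels are all that says the libraries came from separate animals, so p-values measure the spread between these libraries.

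Some library facts bear on everything below. Titles end in a number and an index. All 6 Mfn2AA titles carry the same number (P21_Mfn2AA_10534-1 and so on), while 3 Mfn2wt titles carry a first one (P21_Mfn2wt_10547-4, P21_Mfn2wt_10547-8 and P21_Mfn2wt_10547-9) and 3 a second one (P21_Mfn2wt_10583-2, P21_Mfn2wt_10583-3 and P21_Mfn2wt_10583-5). The genotype and whatever that number marks cannot be told apart. Total counts ran from 6759052 to 14952713 in Mfn2AA and from 11376639 to 24339146 in Mfn2wt libraries. All 13 ventricular cardiomyocyte markers had counts, with summed levels of 84431 to 112652 CPM in Mfn2AA and 96387 to 114696 CPM in Mfn2wt libraries. Summed atrial markers were over 5000 CPM in 3 Mfn2AA libraries, with 5646 in P21_Mfn2AA_10534-4, 9433 in P21_Mfn2AA_10534-5 and 6643 in P21_Mfn2AA_10534-8. The other 3 Mfn2AA libraries held 574 to 944 CPM of them and the 6 Mfn2wt libraries 623 to 1717 CPM. The control library P21_tetoff_10534-3 stood apart, since its transgene level was 361.9 FPKM against 6.36 to 26.0 FPKM in the other 4 tetoff libraries. Calls that use tetoff hearts are also given without it where that changed a call, or moved a count of called genes or a list's median by more than 1.5 times.

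The human transgene was read in FPKM, reads scaled to transcript length and library size, since only that table lists it. Mfn2AA libraries held 1834, 4644, 5268, 5933, 6182 and 8051 FPKM, and Mfn2wt libraries 1405, 1513, 1524, 1577, 1711 and 1796 FPKM. The groups did not overlap, although P21_Mfn2AA_10534-6 lay just above the highest Mfn2wt library. The means were 5319 ± 2059 FPKM in Mfn2AA and 1588 ± 143 FPKM in Mfn2wt hearts (SD, n = 6 each), a ratio of 3.35. On the log2 scale the difference was 1.62 (exact two-sided permutation test, p = 0.00216, the smallest that 6 against 6 allows). The residues and the transgene level therefore differed together and cannot be told apart in this comparison.

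Mouse Mfn2 (chromosome 4, 147873595 to 147904819, build mm10) had 956 to 1271 CPM in Mfn2AA and 860 to 1103 CPM in Mfn2wt hearts, and the groups overlapped. Its log2 difference was 0.12 ± 0.11 (edgeR adjusted p = 0.514), a value that is uncertain because reads of the human cDNA may align to the mouse gene. Of 29 tested genes of the PINK1-Parkin pathway and mitophagy receptors, 1 was called higher and 2 lower, with a median log2 difference of -0.10. Over all genes 7.52% were called higher and 6.19% lower, so these counts lay near the background. Pink1, the kinase gene, had 530 to 747 CPM (median 619) in Mfn2AA and 360 to 543 CPM (median 507) in Mfn2wt hearts, a difference of 0.36 ± 0.12 (edgeR adjusted p = 0.0414). That call was lost in 10 of 24 alternatives. Optn, an autophagy receptor, was lower by -0.47 and lost its call in 15 of 24, and Usp15, a deubiquitinase that opposes Parkin, was lower by -0.35 and lost it in 9. Park2, which encodes Parkin, was not called (-0.26, edgeR adjusted p = 0.309).

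**Figure D1:**
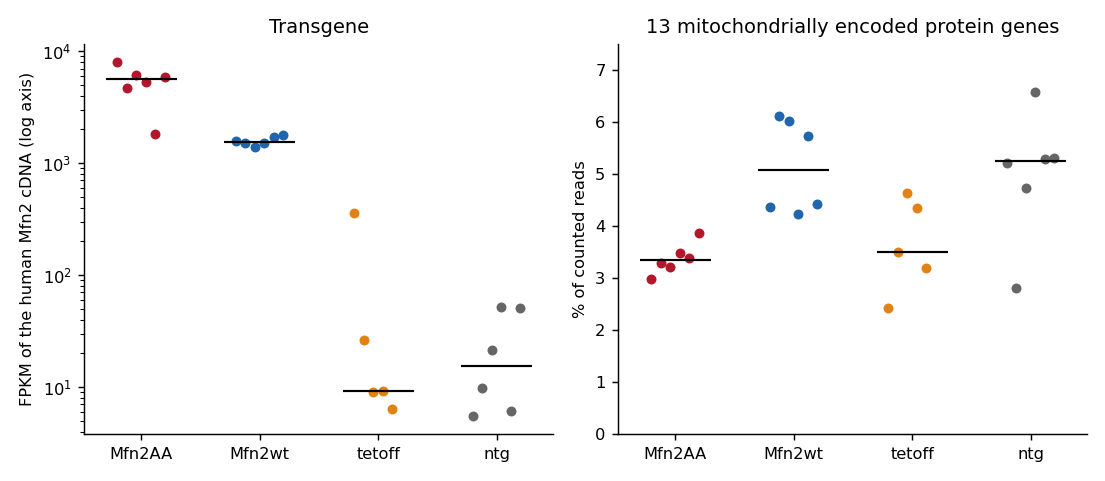
Transgene level in FPKM on a log axis and the share of counts from the 13 mitochondrially encoded protein genes in percent, 1 point per P21 library, with a bar at each group's median. Every Mfn2AA library lay above every Mfn2wt library for the transgene and below every one for the mitochondrial share, while P21_tetoff_10534-3 stood alone among the controls at 361.9 FPKM.

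Genes of the integrated stress response were lower in Mfn2AA than in Mfn2wt hearts. Of 36 tested members, 16 were called lower and 2 higher, and the median log2 difference was -0.31, beside -0.01 over all genes. The count of lower members was 15 to 17 under 24 alternative settings, which include each library left out in turn and the fits with Mfn2wt libraries of a single title number.

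The promoters of the called members are shown first, since a short element bound by ATF4 together with C/EBP factors is known from several of them. The core TGATGNAA was searched on both strands, from 250 bases before to 50 after each annotated start. It was found in 1304 of 32851 windows of that length (3.97%). Counted by gene, 286 of the 10015 tested genes with a window held it (2.86%). Of the 16 called lower members, 14 had a window and 6 of those held the core, while 4 of the 16 other members with a window held it (Atf3, Pycr1, Nupr1 and Vldlr). The 6 are printed 5′ to 3′ along the gene, 280 bases each, 250 of them before the start, from RefSeq on GRCm38.p6, with the core in capitals on either strand. A match is a description of letters and not a site shown to be bound.

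Asns, chr6:7693180-7693459, reverse strand: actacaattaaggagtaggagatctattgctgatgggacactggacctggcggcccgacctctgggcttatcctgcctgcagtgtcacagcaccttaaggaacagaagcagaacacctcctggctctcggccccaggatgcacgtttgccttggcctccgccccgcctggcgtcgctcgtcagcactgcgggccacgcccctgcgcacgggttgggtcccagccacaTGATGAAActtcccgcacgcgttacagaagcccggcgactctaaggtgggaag
Fgf21, chr7:45615461-45615740, reverse strand: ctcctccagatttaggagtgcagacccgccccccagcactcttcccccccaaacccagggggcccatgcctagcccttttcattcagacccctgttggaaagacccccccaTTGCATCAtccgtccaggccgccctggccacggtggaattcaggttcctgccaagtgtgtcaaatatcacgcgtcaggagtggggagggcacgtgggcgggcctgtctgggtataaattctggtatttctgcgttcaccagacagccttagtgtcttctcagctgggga
Chac1, chr2:119350992-119351271, forward strand: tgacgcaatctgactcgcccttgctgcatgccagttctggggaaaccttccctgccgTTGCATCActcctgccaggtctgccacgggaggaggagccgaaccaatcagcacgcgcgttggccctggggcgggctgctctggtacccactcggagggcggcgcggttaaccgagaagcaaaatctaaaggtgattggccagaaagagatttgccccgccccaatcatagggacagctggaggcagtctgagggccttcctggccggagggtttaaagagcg
Trib3, chr2:152344031-152344310, reverse strand: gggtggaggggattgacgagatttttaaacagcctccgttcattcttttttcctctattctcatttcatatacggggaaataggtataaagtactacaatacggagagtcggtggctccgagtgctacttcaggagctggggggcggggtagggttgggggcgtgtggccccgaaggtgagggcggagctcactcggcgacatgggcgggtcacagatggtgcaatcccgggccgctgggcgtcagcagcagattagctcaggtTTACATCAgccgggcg
Gars, chr6:55037751-55038030, forward strand: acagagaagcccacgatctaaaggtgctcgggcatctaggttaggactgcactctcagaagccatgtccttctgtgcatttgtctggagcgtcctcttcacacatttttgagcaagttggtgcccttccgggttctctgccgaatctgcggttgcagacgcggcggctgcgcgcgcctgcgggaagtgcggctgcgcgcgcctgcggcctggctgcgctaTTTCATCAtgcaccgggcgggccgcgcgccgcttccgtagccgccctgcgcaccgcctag
Aars, chr8:111033592-111033871, forward strand: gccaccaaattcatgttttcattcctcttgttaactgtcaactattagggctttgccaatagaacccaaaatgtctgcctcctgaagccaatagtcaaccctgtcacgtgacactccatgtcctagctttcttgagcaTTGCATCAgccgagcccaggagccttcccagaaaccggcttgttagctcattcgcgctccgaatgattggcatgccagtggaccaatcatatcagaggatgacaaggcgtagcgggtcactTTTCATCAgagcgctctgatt

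In the Asns window the core lies on the gene's own strand and begins 23 bases before the start. In the other printed windows it lies on the opposite strand, and Aars holds 2 copies.

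Asns encodes asparagine synthetase, a standard target of ATF4. It had 1.05 to 5.06 CPM (median 1.84) in Mfn2AA hearts, against 8.29 to 19.4 CPM (median 12.3) in Mfn2wt hearts. No library overlapped, and the log2 difference was -2.64 ± 0.30 (edgeR adjusted p = 3.05e-06). Tetoff hearts had 0.994 to 2.35 CPM and ntg hearts 0.825 to 2.48 CPM, so the Mfn2AA range lay near the controls and the Mfn2wt range above all of them. Mthfd2, an enzyme of mitochondrial one-carbon metabolism, had 3.98 to 15.6 CPM (median 9.51) in Mfn2AA and 26.6 to 71.7 CPM (median 50.9) in Mfn2wt hearts. It was lower by -2.39 ± 0.26 (edgeR adjusted p = 1.53e-06), again without overlap. Mthfd2 was also higher in Mfn2AA than in tetoff hearts (1.47, edgeR adjusted p = 0.0365), where tetoff libraries held 2.63 to 4.70 CPM.

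Among the hormones of this response, Fgf21 had 0.0676 to 0.380 CPM in Mfn2AA and 0.774 to 1.86 CPM in Mfn2wt hearts. It was lower by -2.94 ± 0.40 (edgeR adjusted p = 3.06e-05), at a level of few counts in Mfn2AA libraries. Gdf15 had 0.721 to 5.49 CPM (median 1.30) in Mfn2AA and 2.24 to 18.0 CPM (median 6.68) in Mfn2wt hearts, with overlap between the groups. Its difference was -1.91 ± 0.46 (edgeR adjusted p = 0.00695), and the call was lost in 2 of 24 alternatives. No tetoff library exceeded 0.0840 CPM of Fgf21 or 1.14 CPM of Gdf15.

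The transcription factors of the response moved by different amounts. Atf5 had 99.5 to 150 CPM (median 121) in Mfn2AA and 239 to 343 CPM (median 298) in Mfn2wt hearts, a difference of -1.30 ± 0.10 (edgeR adjusted p = 1.18e-08) with a wide gap between the groups. Atf4 itself had 70.1 to 82.3 CPM in Mfn2AA and 88.5 to 122 CPM in Mfn2wt hearts, which did not overlap either, and differed by -0.45 ± 0.08 (edgeR adjusted p = 0.00047). Ddit3, the factor known as CHOP, was lower by -0.67 and Trib3, a pseudokinase that it induces, by -0.87.

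Transport, synthesis and charging of amino acids followed. Slc7a5, the large neutral amino acid transporter, had 8.51 to 15.5 CPM in Mfn2AA and 25.9 to 33.5 CPM in Mfn2wt hearts, with no overlap and a difference of -1.22 ± 0.13. Phgdh, the first enzyme of serine synthesis, was lower by -1.25 and Aldh18a1, an enzyme of proline synthesis, by -1.03. Chac1, which degrades glutathione, was lower by -1.51. Of the enzymes that charge tRNA, Gars was lower by -0.69, Aars by -0.60, Sars by -0.51 and Nars by -0.41. The 2 members called higher were Ddit4, an inhibitor of mTORC1 that glucocorticoids also induce (1.21), and Stc2, a secreted glycoprotein (0.42, a call lost in 14 of 24 alternatives).

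Each transgenic line was set beside a control group in the same fit. In Mfn2AA against tetoff hearts, where 78 genes (0.574%) were called, 1 member of the stress response was called higher and none lower by edgeR, with a median of 0.07. At an unadjusted p under 0.05 there were 8 higher and 3 lower members, and DESeq2 called 2 higher and 0 lower. Without P21_tetoff_10534-3, 395 genes were called by edgeR and 3 members were higher. In Mfn2wt against ntg hearts 82 genes (0.604%) were called in all, and 15 of the 36 members were higher with a median of 0.47. Asns was 2.98 ± 0.32 higher there and Atf5 1.55 ± 0.10. Mfn2AA against Mfn2wt shares libraries with both of these comparisons, so the values are given side by side and no overlap is counted.

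**Figure D2:**
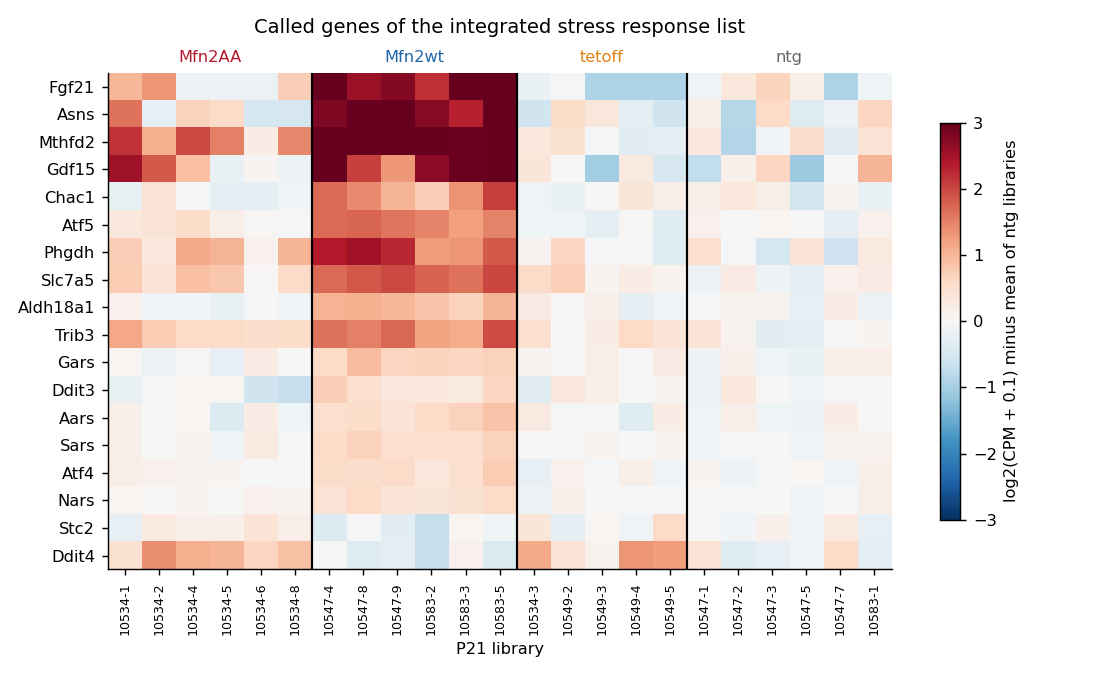
The called integrated stress response genes (rows) in the P21 libraries (columns, Mfn2AA at the left), coloured by log2(CPM + 0.1) less the gene's mean in ntg libraries, with colours limited to -3 and 3. The Mfn2wt columns are the ones raised in most rows called lower in Mfn2AA, for example Asns with 8.29 to 19.4 CPM there and at most 5.06 CPM in all other libraries.

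The difference of differences asked which genes differ between Mfn2AA and Mfn2wt once the difference between tetoff and ntg hearts is subtracted. It pairs Mfn2AA with tetoff and Mfn2wt with ntg, a pairing chosen for the fit. It called 30 genes (0.221%), 7 higher and 23 lower, and 9 of the lower ones were stress response members. Mthfd2 (-2.33), Asns (-2.50), Slc7a5 (-1.56), Chac1 (-1.56) and Trib3 (-1.19) were among the 10 greatest. The others of those 10 were Macrod2 (-2.38), Tubb2b, a neuronal tubulin (-1.58), Sema6c, a semaphorin (1.74), Dbh, which makes noradrenaline (1.25), and Gpr137c (1.22). Without P21_tetoff_10534-3 this contrast called 135 genes, 77 higher and 58 lower, and 12 stress response members were lower. With the title number as a block it called fewer genes and fewer stress response members. In that fit Mfn2AA is compared within its own number with P21_tetoff_10534-3 alone, the tetoff library that stood apart. The stress response members called there, all lower, were Slc7a5 (-1.76), Aldh18a1 (-1.32) and Atf5 (-1.19).

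Genes of the cell cycle were lower. Of 53 tested members, 25 were called lower by edgeR, with a median log2 difference of -0.59, and 52 of the 53 lay below 0. None was called higher, none had an unadjusted p under 0.05 in that direction, and DESeq2 called 26 lower and none higher. Mcm6, a subunit of the replicative helicase, had 2.96 to 3.65 CPM (median 3.47) in Mfn2AA and 5.78 to 15.5 CPM (median 8.44) in Mfn2wt hearts. It differed by -1.45 ± 0.27 (edgeR adjusted p = 0.000815), and the Mfn2AA libraries were tightly grouped below all Mfn2wt libraries. Mcm5, of the same helicase, had 4.40 to 7.90 CPM in Mfn2AA and 10.3 to 22.4 CPM in Mfn2wt hearts, a difference of -1.24 ± 0.18. Ccnd2, a cyclin of the G1 phase, had 110.9 to 178 CPM in Mfn2AA and 209.9 to 327 CPM in Mfn2wt hearts, a difference of -1.06 ± 0.12. Mcm10, which starts replication, was lower by -1.69 and Neil3, a DNA glycosylase of dividing cells, by -2.13, both at low levels in either group. Ccnd1, named after its values were seen, was lower by -0.92.

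Against tetoff hearts 2 members were lower in Mfn2AA (median -0.26), and 7 without P21_tetoff_10534-3 (median -0.34). The tetoff hearts had a median of -0.22 against ntg, with no member called by edgeR or DESeq2 and 6 lower at an unadjusted p under 0.05. Without P21_tetoff_10534-3 that median was -0.14, with no call by edgeR and 1 lower at an unadjusted p under 0.05. With the Mfn2wt libraries of the second title number alone, 9 members were called lower in place of 25. With only the 3 Mfn2AA libraries under 5000 CPM of atrial markers, 11 were. In tissue, fewer cells of a type and less RNA per cell cannot be told apart, and this holds for every marker and cell cycle gene here.

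The 13 protein genes of mitochondrial DNA encode core subunits of the respiratory chain and ATP synthase. They took 2.98% to 3.86% of counts (median 3.34%) in Mfn2AA and 4.23% to 6.11% (median 5.07%) in Mfn2wt libraries, without overlap. The means were 3.37% ± 0.295 and 5.14% ± 0.895 (SD, n = 6 each), with Mfn2AA lower by 1.78 percentage points (a difference of -1.78, exact two-sided permutation test, p = 0.00216, the smallest possible). As a share of summed FPKM the difference was -2.16 percentage points (exact two-sided permutation test, p = 0.0108). That p is above the smallest possible, so the groups overlapped on that measure. Tetoff libraries held 2.42% to 4.63% and ntg libraries 2.81% to 6.57%, ranges that overlapped, and this pair was not tested.

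In the count test, 10 of the 13 genes were called lower and all 13 lay below 0, with a median of -0.85. The 3 that were not called were mt-Atp6, mt-Co1 and mt-Nd3. Mt-Atp8 (mt-Atp8, a subunit of ATP synthase) had 305 to 375 CPM in Mfn2AA and 462 to 1058 CPM in Mfn2wt hearts, a difference of -1.13 ± 0.25 (edgeR adjusted p = 0.00358). The complex I gene mt-Nd5 had 1263 to 1644 CPM in Mfn2AA and 2057 to 3206 CPM in Mfn2wt hearts, at -0.85 ± 0.17. Neither gene overlapped between the groups.

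In tetoff against ntg hearts the same genes had a median of -0.56, with 1 member called lower by edgeR and by DESeq2 and 11 lower at an unadjusted p under 0.05. Without P21_tetoff_10534-3 edgeR called none, 5 were lower at an unadjusted p under 0.05, and the median was -0.45. Mfn2AA against tetoff hearts had a median of -0.23, with no member called by edgeR or DESeq2 and none at an unadjusted p under 0.05. Between Mfn2AA and Mfn2wt the count of called members depended on the libraries, at 8 with Mfn2wt libraries of the first title number alone and 1 with those of the second. It was 3 with the atrial and adipocyte scores as terms and 3 without the 3 atrial-rich Mfn2AA libraries. The median was between -0.92 and -0.68 under all 24 alternatives.

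Nuclear genes of mitochondria differed less. Of 36 tested complex I subunits 2 were called lower, of 43 subunits of complexes II to V 3, and of 23 citric acid cycle genes 2, with medians of -0.11, -0.13 and -0.10. None was called higher by edgeR or DESeq2, and at an unadjusted p under 0.05 1 citric acid cycle gene was higher and 10, 9 and 4 genes of the 3 lists were lower. Over all genes 6.19% were called lower. In the 3 lists 29 of 36, 41 of 43 and 20 of 23 genes lay below 0, beside 6995 of 13585 over all genes. In fatty acid uptake and oxidation 6 of 37 genes were called lower and 1 higher (Ucp2, a mitochondrial carrier), with a median of -0.17. The lower count was 2 (median -0.06) with atrial and adipocyte scores as terms, 1 (median -0.07) with only the Mfn2AA libraries under 5000 CPM of atrial markers, and 2 (median -0.20) with Mfn2wt libraries of the second title number alone. None was called higher in those fits. Acaa2, the last thiolase of beta-oxidation, had 316 to 478 CPM in Mfn2AA and 472 to 734 CPM in Mfn2wt hearts, which overlapped slightly, and differed by -0.56 ± 0.13. Acot2, a mitochondrial acyl-CoA thioesterase, had 24.4 to 47.9 CPM in Mfn2AA and 37.3 to 99.9 CPM in Mfn2wt hearts, at -1.06 ± 0.19 with overlap.

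The other mitochondrial lists held 2 or 3 lower calls each, beside 6.19% of genes called lower over all genes. Fusion, fission, transport and cristae genes had 2 of 23 lower (Apool and Dnm1l), and biogenesis genes 3 of 27 lower, Ppargc1a at -0.52 among them. The mitochondrial chaperones Hspa9 (-0.60) and Hspd1 (-0.35) were lower among 16 chaperones and proteases. Genes of endoplasmic reticulum stress, 22 tested, and of heat shock, 17 tested, held no call in either direction in edgeR, with medians of 0.02 and -0.04. At an unadjusted p under 0.05 the first list had 1 higher and 1 lower gene and the second 2 and 2, and DESeq2 called 1 gene, lower, in the first.

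**Figure D3:**
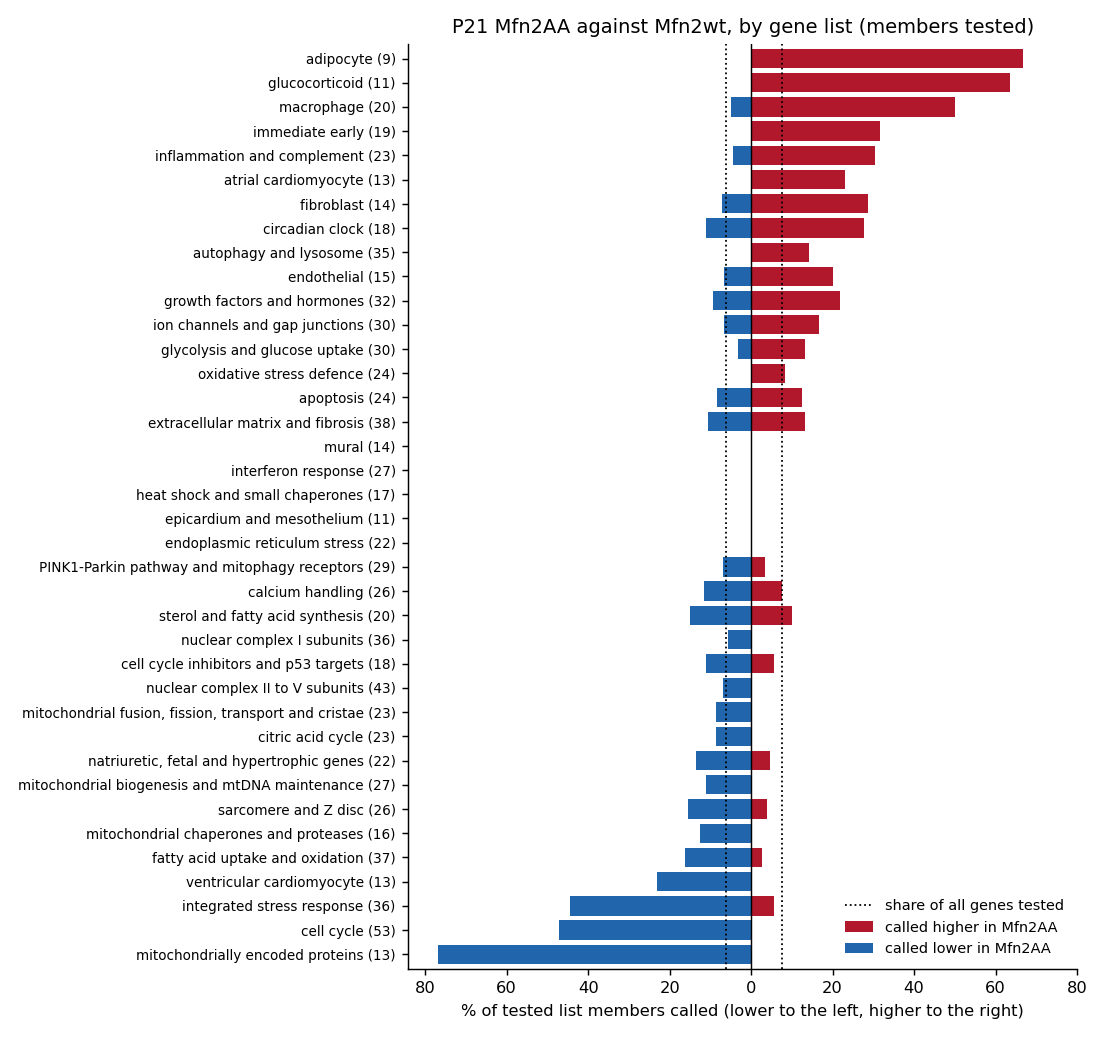
Number of members called higher (right) and lower (left) in P21 Mfn2AA against Mfn2wt, as percent of the tested members of each gene list with at least 9 tested members. The integrated stress response, cell cycle and mitochondrially encoded lists lie to the left, and the glucocorticoid, macrophage and adipocyte lists to the right of the share over all genes. Of the adipocyte calls, Adipoq, Plin1, Cidec, Cfd and Pck1 did not pass the filter on low counts when the 2 groups were fitted alone. In that fit 4 adipocyte markers were tested and edgeR called none.

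Genes that glucocorticoids induce were higher in Mfn2AA hearts, 7 of 11 tested, with a median of 1.06. Summed over the list, levels were 1502 to 1858 CPM in Mfn2AA libraries. Among Mfn2wt libraries P21_Mfn2wt_10583-3 held 2251 CPM, above every Mfn2AA library, P21_Mfn2wt_10583-5 held 1853 CPM and the other 4 held 652 to 1063 CPM, so the sums overlapped. Fkbp5, a chaperone of the glucocorticoid receptor, had 80.6 to 116 CPM (median 94.0) in Mfn2AA and 17.2 to 73.1 CPM (median 26.7) in Mfn2wt hearts. It differed by 1.47 ± 0.30 (edgeR adjusted p = 0.00177) without overlap. Tsc22d3, the leucine zipper protein GILZ, had 209.2 to 345 CPM in Mfn2AA and 92.9 to 161 CPM in Mfn2wt hearts, at 1.06 ± 0.13. Hif3a, a hypoxia-inducible factor gene among the 12 greatest rises, had 7.22 to 13.6 CPM in Mfn2AA and 1.48 to 3.12 CPM in Mfn2wt hearts, at 2.15 ± 0.23. The clock gene Per2 had 55.3 to 79.7 CPM in Mfn2AA and 29.9 to 51.4 CPM in Mfn2wt hearts, at 0.83 ± 0.11.

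The same genes separated the control groups, which share no library with Mfn2AA or Mfn2wt. In tetoff against ntg hearts Fkbp5 differed by 2.04, Hif3a by 1.42, Per2 by 0.72 and Tsc22d3 by 0.61, all called by edgeR, and 4 of the 11 members were higher (3 without P21_tetoff_10534-3). In Mfn2AA against tetoff hearts edgeR and DESeq2 called no member (median 0.21) and 1 was higher at an unadjusted p under 0.05. Without P21_tetoff_10534-3 edgeR called 1. With Mfn2wt libraries of the second title number alone, 3 members were called higher and 1 lower. Time of day and handling at collection are not given in the labels, and their part in these values was not tested.

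Macrophage genes were higher. Of 20 tested markers 10 were called higher and 1 lower, with a median of 0.46. Lyz2, lysozyme, had 93.6 to 248 CPM (median 150) in Mfn2AA and 51.5 to 78.1 CPM (median 70.8) in Mfn2wt hearts, a difference of 1.15 ± 0.20 (edgeR adjusted p = 0.000448) without overlap. The scavenger receptor Cd163 had 26.2 to 50.6 CPM in Mfn2AA and 5.79 to 23.3 CPM in Mfn2wt hearts, at 1.39 ± 0.27, and Cd74, the invariant chain of antigen presentation, was 1.12 higher. The chemokine receptor Cx3cr1 went the other way, with 16.3 to 23.8 CPM in Mfn2AA and 24.3 to 40.9 CPM in Mfn2wt hearts, at -0.61 ± 0.16. Summed over the 20 markers, macrophage levels were 708 to 1467 CPM in Mfn2AA and 589 to 743 CPM in Mfn2wt libraries.

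Genes of activated macrophages were at low levels. Gpnmb, a lysosomal glycoprotein of such cells, had 0.419 to 4.18 CPM in Mfn2AA and 0 to 0.837 CPM in Mfn2wt hearts, with overlap, and differed by 3.03 ± 0.58. Lgals3, galectin-3, had 1.90 to 14.1 CPM in Mfn2AA and 0.551 to 2.57 CPM in Mfn2wt hearts, at 2.17 ± 0.39. Of 23 genes of inflammation and complement 7 were called higher and 1 lower, which was Tnf, the cytokine (-1.82). Against tetoff hearts 5 macrophage markers were higher in Mfn2AA (median 0.45, and the same count without P21_tetoff_10534-3), while in tetoff against ntg hearts edgeR called none, with a median of -0.07. At an unadjusted p under 0.05 3 markers were higher and 1 lower there, and DESeq2 called 1 lower. Without P21_tetoff_10534-3 edgeR again called none there, with 3 higher and 1 lower at an unadjusted p under 0.05 and a median of -0.03. With only the Mfn2AA libraries under 5000 CPM of atrial markers, 4 markers were called higher, and 5 with Mfn2wt libraries of the second title number alone. In the difference of differences edgeR called no macrophage marker (median 0.49). There 8 were higher and 0 lower at an unadjusted p under 0.05, and DESeq2 called 3 higher. Without P21_tetoff_10534-3 edgeR called 1 higher in that contrast.

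Atrial and adipocyte markers followed single libraries. Of 13 tested atrial markers 3 were called higher (median 1.98) and of 9 adipocyte markers 6 (median 3.23). Nppa, atrial natriuretic peptide, ran from 29.4 to 4740.1 CPM (median 1463) in Mfn2AA and from 60.6 to 432 CPM (median 243) in Mfn2wt hearts, with overlap, and was not called (2.87, edgeR adjusted p = 0.0934). Of the 6, Adipoq, Plin1, Cidec, Cfd and Pck1 were under 1 CPM in every Mfn2wt library, and they did not pass the filter on low counts when the 2 groups were fitted alone. There 4 adipocyte markers passed it, edgeR called none, 1 (Lipe) was higher at an unadjusted p under 0.05, and the median was 0.22. Adipoq, the adipocyte hormone adiponectin, had 0 to 3.25 CPM in Mfn2AA and 0 to 0.141 CPM in Mfn2wt hearts. Over the 3 Mfn2AA libraries under 5000 CPM of atrial markers the list medians were -0.61 and 0.35, with 0 and 1 members called. The adipocyte count was 0 with Mfn2wt libraries of the second title number alone and 1 with limma, 3 without P21_Mfn2AA_10534-4, 1 without P21_Mfn2AA_10534-5 and 2 without P21_Mfn2wt_10547-8, and the atrial count 1 to 6 over single libraries left out. The control libraries P21_tetoff_10549-2 (12539 CPM) and P21_ntg_10547-2 (8903 CPM) also held high atrial sums. The part of the atrial-rich libraries in the other results was not tested beyond the values without them.

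Ventricular and contractile genes differed by small amounts. Of 13 tested ventricular cardiomyocyte markers edgeR called 3 lower, beside 6.19% over all genes. Their median was -0.19 and all 13 lay below 0. Myl2, the ventricular regulatory light chain, had 5551 to 7085 CPM in Mfn2AA and 7525 to 11387 CPM in Mfn2wt hearts, at -0.56 ± 0.14, without overlap. The Myl2 call was lost in 3 of 24 alternatives. They were atrial and adipocyte scores as terms, Mfn2AA libraries under 5000 CPM of atrial markers and Mfn2wt of the second title number alone. Tcap, a Z disc protein, had 1316 to 1968 CPM in Mfn2AA and 855 to 1403 CPM in Mfn2wt hearts, at 0.62 ± 0.12. Nppb, brain natriuretic peptide, had 45.3 to 175 CPM in Mfn2AA and 127 to 297 CPM in Mfn2wt hearts, at -1.06 ± 0.32, a call lost in 8 of 24 alternatives. Among 30 ion channel and gap junction genes 5 were higher and 2 lower, beside 7.52% and 6.19% over all genes. The T-type calcium channel gene Cacna1g had 79.5 to 123 CPM in Mfn2AA and 50.8 to 61.3 CPM in Mfn2wt hearts (0.85), and Gja1, connexin 43, 211 to 310 CPM in Mfn2AA and 344 to 416 CPM in Mfn2wt hearts (-0.51). Neither overlapped. In tetoff against ntg hearts Cacna1g was at 0.19 and Gja1 at -0.54.

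Growth factors gave 7 higher and 3 lower genes of 32, beside 7.52% and 6.19% over all genes. Mstn, myostatin, had 0.836 to 2.16 CPM in Mfn2AA and 0 to 0.304 CPM in Mfn2wt hearts, at 3.20 ± 0.51, and it was 3.08 higher in tetoff than in ntg hearts (edgeR adjusted p = 0.0177), a call lost without P21_tetoff_10534-3 (2.75, edgeR adjusted p = 0.0521). Fgf1 had 26.2 to 120 CPM in Mfn2AA and 11.3 to 25.4 CPM in Mfn2wt hearts, at 2.26 ± 0.41. Bex1 and Akap5, an anchor of protein kinase A (-1.90), were among the 12 greatest falls. Bex1 had 0.419 to 1.08 CPM in Mfn2AA and 1.52 to 4.74 CPM in Mfn2wt hearts. Akap5 had 2.79 to 4.73 CPM in Mfn2AA and 7.99 to 19.2 CPM in Mfn2wt hearts.

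Genes called between the transgenic lines mostly had the same sign between the control groups, where few of them were called. In tetoff against ntg hearts 222 genes (1.63%) were called, and 196 without P21_tetoff_10534-3. Of the 1862 genes called between Mfn2AA and Mfn2wt, 1619 (86.9%) had the same sign in tetoff against ntg hearts, beside 68.9% over all genes, and 78.4% without P21_tetoff_10534-3. Across those called genes Pearson's r of the log2 differences was 0.72, and 0.58 without that library, as a description over genes, which are not replicates. Sizes were smaller in the controls, with a median absolute log2 difference of 0.48 in Mfn2AA against Mfn2wt and 0.19 in tetoff against ntg. Genes called in both were 130, which is 6.98% of the first list and 58.6% of the second, and 129 of them had the same sign. Without P21_tetoff_10534-3 there were 91.

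By list, the shared sign varied. All 7 called glucocorticoid genes, all 7 called clock genes, all 7 called genes of fatty acid oxidation and all 10 called mitochondrially encoded genes had the same sign in the controls, as did 24 of 25 called cell cycle genes. In the integrated stress response it was 9 of 18 and in macrophage markers 7 of 11. Without P21_tetoff_10534-3 the cell cycle count was 23 of 25, and the counts of the other 6 lists were as given. The title number of the Mfn2AA libraries recurs in 1 tetoff library, P21_tetoff_10534-3, and both numbers of the Mfn2wt libraries recur in ntg libraries.

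**Figure D4:**
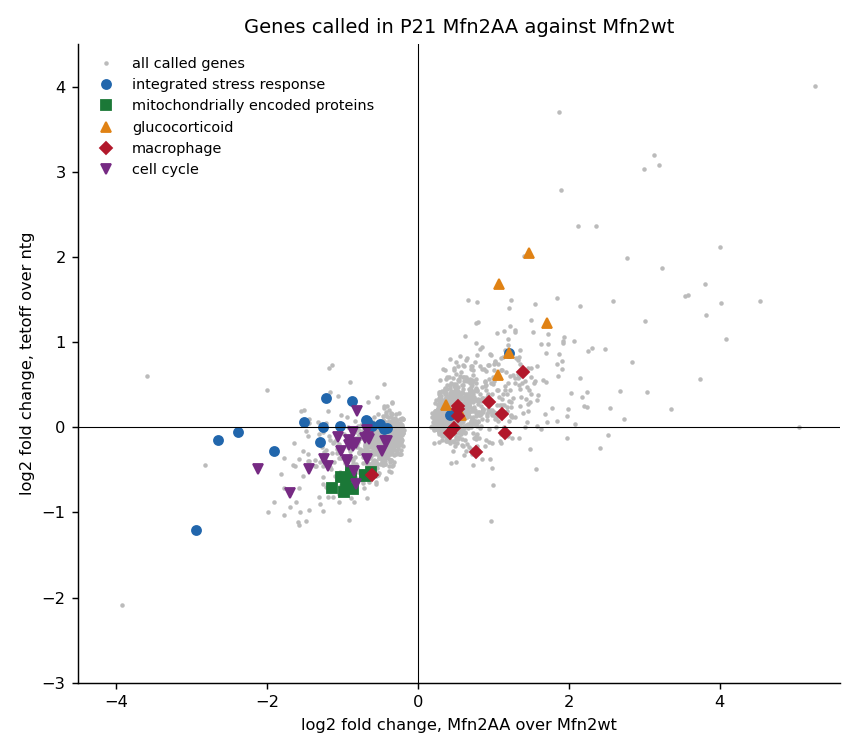
Log2 differences of genes called in P21 Mfn2AA against Mfn2wt (horizontal) and in tetoff against ntg (vertical), 1 point per gene, with members of 5 gene lists coloured. Most points lie along a rising band (r = 0.72), while Asns (-2.64 and -0.15) and Mthfd2 (-2.39 and -0.05) lie far to the left near the horizontal midline.

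A few genes split the libraries by line in an almost all-or-none way. Endod1, an endonuclease gene on chromosome 9 (14353990 to 14381242), had 84.4 to 161 CPM in Mfn2AA and 101 to 144 CPM in tetoff hearts, against 11.04 to 19.4 CPM in Mfn2wt and 10.4 to 21.3 CPM in ntg hearts. It separated Mfn2AA with tetoff from Mfn2wt with ntg, at 3.12 ± 0.17 for Mfn2AA against Mfn2wt. Macrod2, a macrodomain hydrolase gene on chromosome 2 (140395430 to 142390050), had 3.67 to 6.46 CPM in Mfn2AA and 25.7 to 52.0 CPM in Mfn2wt hearts, beside 2.61 to 3.68 CPM in tetoff and 3.16 to 4.74 CPM in ntg hearts. It was high in Mfn2wt hearts alone, at -2.82 ± 0.16. Its neighbour Sel1l2, chosen after its values were seen, had 0 to 0.304 CPM in Mfn2AA and 0.367 to 1.30 CPM in Mfn2wt hearts, and at most 0.146 CPM in the controls.

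The olfactory receptor gene Olfr541 on chromosome 7 (140704253 to 140705191) had 19.95 to 38.2 CPM in Mfn2AA and 0 to 2.71 CPM in Mfn2wt hearts. Among the controls P21_tetoff_10534-3 held 1.67 CPM and no other library more than 0.2003 CPM. Nearby, Cyp2e1, a cytochrome P450, had 1.44 to 9.60 CPM in Mfn2AA and 0.304 to 1.14 CPM in Mfn2wt hearts. Scgb1c1, a secretoglobin gene also chosen after its values were seen, had 14.2 to 20.1 CPM in Mfn2AA and 4.72 to 7.24 CPM in Mfn2wt hearts. Between them lies Zfp941, which was not called (0.56, edgeR adjusted p = 0.153).

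Lgr6, a receptor for R-spondins on chromosome 1, did not follow the lines. It had 44.4 to 79.9 CPM in Mfn2AA hearts, while P21_Mfn2wt_10547-9 held 29.97 CPM and the other 5 Mfn2wt libraries 5.91 to 7.26 CPM. In the controls P21_tetoff_10534-3 held 84.9 CPM and ntg libraries 4.59 to 49.8 CPM.

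**Figure D5:**
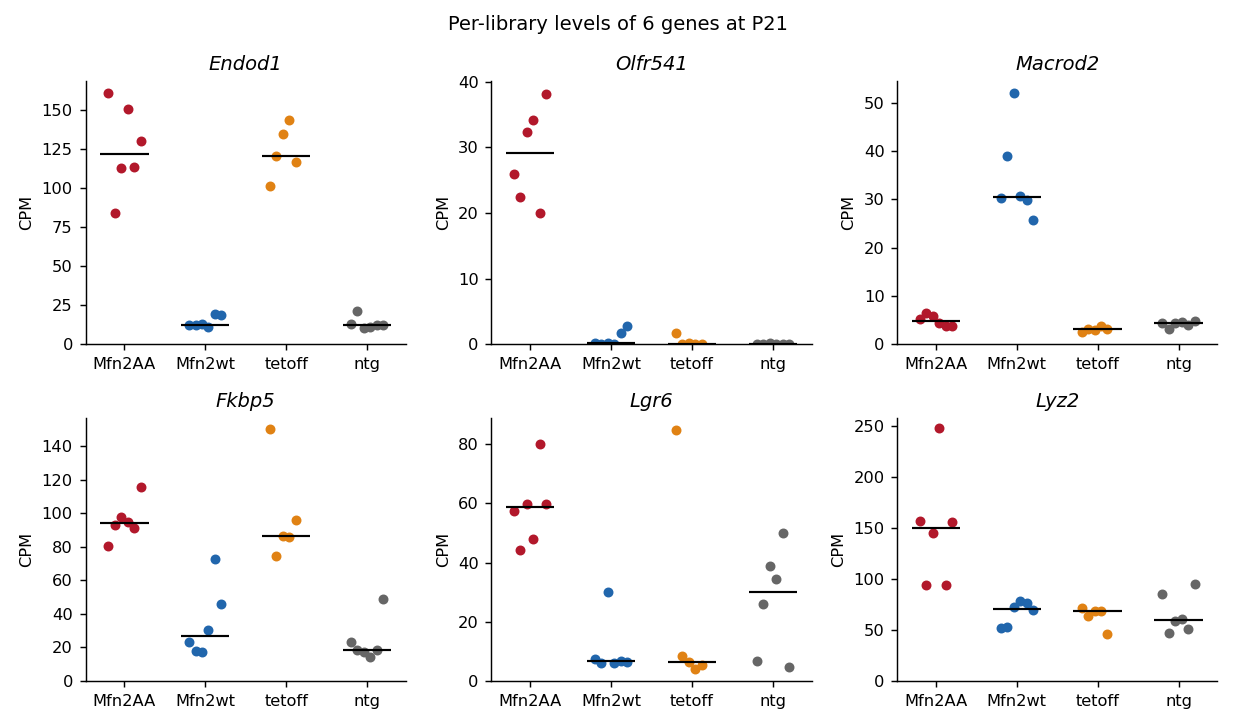
CPM of 6 genes on linear axes, 1 point per P21 library and a bar at each group's median, with groups Mfn2AA, Mfn2wt, tetoff and ntg from left to right. Endod1 is high in Mfn2AA and tetoff, Macrod2 in Mfn2wt alone and Olfr541 in Mfn2AA with at most 2.71 CPM elsewhere, while Lgr6 is high in all Mfn2AA libraries and in some libraries of the other groups.

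The same contrast was read at the other ages in a fit of 56 libraries over 14610 genes, with 3 Mfn2AA and 4 Mfn2wt libraries at P1 and 4 and 4 at 5 weeks. At P1 it called 3 genes, and it called 1407 at P21 and 6860 at 5 weeks. All Mfn2AA and Mfn2wt libraries of an age were made in the batch of that age, so for this contrast age and batch cannot be told apart. The ntg libraries of P21 (3) and of 5 weeks (4) that were made in the P1 batch did not enter the fit. The difference changed between P1 and P21 in 45 genes (0.308%) and between P21 and 5 weeks in 5261 genes (36.0%).

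For the stress response the median log2 difference was 0.04 at P1, -0.31 at P21 and -0.51 at 5 weeks. Mthfd2 was at 0.14 at P1, -2.38 at P21 and -2.60 at 5 weeks, and its change from P1 to P21 of -2.52 was called, as were those of Asns (-2.44), Slc7a5 (-1.51) and Atf5 (-1.32). In all 8 of the 36 members changed between P1 and P21, all toward lower values in Mfn2AA. Gdf15 was at 0.35, -1.91 and 0.96 at the 3 ages, and its change from P21 to 5 weeks of 2.88 was called.

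The cell cycle list had medians of -0.06 at P1, -0.60 at P21 and 1.69 at 5 weeks. Mcm6 was at -0.31, -1.45 and 1.53, and 47 of the 53 members changed upward between P21 and 5 weeks. The mitochondrially encoded list had medians of 0.17, -0.85 and -1.79. Of its 13 members none was called as changed from P1 to P21. From P21 to 5 weeks 2 were called, both downward, beside 36.0% of all genes called in either direction. Fatty acid oxidation genes had medians of 0.00, -0.17 and -1.37, and 30 of 37 changed downward after P21. Gpnmb was at -0.77, 3.03 and 3.04, and its change from P1 to P21 of 3.81 was called. Endod1 was at 3.27, 3.12 and 2.16, and Macrod2 at -3.28, -2.82 and -2.70, with no call of a change from P1 to P21 for either.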

How the data were processed

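Messenger RNA of mouse hearts was sequenced in 63 libraries, of which the 23 of the P21 batch entered the main fit and 56 the fit across ages. Per the submitters' processing notes, reads were aligned to mm10 with Bowtie2 and TopHat2 2.0.10 and handled with HTSeq and Cufflinks 2.1. The deposited count table holds whole read counts of 23429 genes with no normalization. The deposited FPKM table holds values scaled to length and library size, as the authors made them, and lists the human transgene. The deposited annotation gave exon positions.

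Counts were fitted with edgeR 4.0.16 in R 4.3.3 (TMM, filter by expression, quasi-likelihood F test, Benjamini-Hochberg adjustment), in 1 fit of the 4 P21 groups and 1 fit across ages. Other settings were DESeq2 1.42.0, RLE scaling, no filter on low counts, limma 3.58.1 on log2 FPKM with a pseudocount of 1 or 0.1, the 2 groups alone, Mfn2wt of 1 title number, marker or Xist terms, and each library left out. A fit without the 3 Mfn2AA libraries over 5000 CPM of atrial markers was chosen after seeing the data. Permutation tests and figures used Python 3.11.15, scipy 1.17.1 and matplotlib 3.10.9, and fits were checked on simulated data. Errors of log2 differences are SE, derived as the absolute difference over the square root of edgeR's quasi-likelihood F statistic. Errors of group means are SD, and both kinds include the spread between libraries.

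The comparison and the 43 gene lists were chosen with earlier results of these data known. Named genes were the transgene, Mfn2, Pink1 and Park2, the 12 most raised and 12 most lowered called genes without overlap of the groups (higher mean at least 1 CPM, unnamed and sex-linked genes left out), up to 6 called and 2 uncalled members of each list, all members of the integrated stress response and mitochondrially encoded lists, the 10 greatest in the difference of differences and 5 per change with age. Not all are printed. Genes outside the rule are marked as chosen after their values were seen.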

Additional observations from a re-analysis of the deposited data

Results flagged for a closer look

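In groups of 4 to 10 libraries, a library was marked where it lay far from the others of its group by Dixon's test. Of 104 groups of libraries tested 15 had such a library, and chance marks about 1 in 20. The transgene was at 361.9 FPKM in P21_tetoff_10534-3, and that library was also apart for Fkbp5 (150 CPM), Lgr6 (84.9 CPM) and Olfr541 (1.67 CPM). Among Mfn2AA libraries, Chac1 stood apart in P21_Mfn2AA_10534-2 (7.14 CPM), Sel1l2 in P21_Mfn2AA_10534-2 (0.304 CPM) and Adipoq in P21_Mfn2AA_10534-5 (3.25 CPM). Among Mfn2wt libraries, P21_Mfn2wt_10547-9 stood apart for Mfn2 (860 CPM), Pink1 (360.4 CPM) and Lgr6 (29.97 CPM), and P21_Mfn2wt_10583-3 for Ccnd2 (209.9 CPM) and Tcap (1403 CPM). Among ntg libraries, Fkbp5 stood apart in P21_ntg_10583-1 (48.8 CPM), Endod1 in P21_ntg_10547-2 (21.3 CPM) and Olfr541 in P21_ntg_10547-3 (0.2003 CPM).

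Differences between Mfn2AA and Mfn2wt that themselves differed between groups were tested as contrasts in edgeR. The difference of differences with the control groups called 30 genes, the change from P1 to P21 called 45 and the change from P21 to 5 weeks called 5261. The greatest changes from P1 to P21 were those of Gpnmb (3.81, adjusted p = 0.0458), Lgals3 (3.23, adjusted p = 0.0394), Smim3 (2.88, adjusted p = 0.00137), Chac1 (-2.80, adjusted p = 0.0224) and Slc17a7 (2.79, adjusted p = 0.0106), on the log2 scale and by edgeR. Among the greatest in edgeR from P21 to 5 weeks were those of Bmp10 (-9.01, adjusted p = 3.46e-05), Serpinb9b (7.82, adjusted p = 2.47e-05), Kcnh7 (-6.76, adjusted p = 0.0164) and Mgarp (6.25, adjusted p = 3.39e-06). Bmp10 is on the atrial marker list. Its call between Mfn2AA and Mfn2wt at P21 was lost in 13 of 24 alternatives, and its sign changed in 2.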

How the results depend on the processing

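The count of 1862 genes called in Mfn2AA against Mfn2wt was 726 with Mfn2wt libraries of the second title number alone and 864 with the 3 Mfn2AA libraries under 5000 CPM of atrial markers, a setting chosen after seeing the data, both with fewer libraries, and 1243 to 2091 with 1 library left out. The count of 291 genes of at least 2-fold was 95 and 166 with limma on log2(FPKM + 1) and log2(FPKM + 0.1), 162 with those of the second title number alone, 168 under the atrial limit, and 231 to 312 with 1 library left out. Under DESeq2 the counts were 239 for Mfn2AA against tetoff, 146 for Mfn2wt against ntg, 338 for tetoff against ntg, 68 for the difference of differences and 95 for the change from P1 to P21. Limma gave 51 for Mfn2AA against tetoff, and the title number as a block 10 for the difference of differences. With that block Mfn2AA is compared within its own number with P21_tetoff_10534-3 alone. The cause of these moves in the counts was not tested.

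With 1 library left out the ranges were 10 to 395 for Mfn2AA against tetoff, 45 to 145 for Mfn2wt against ntg, 118 to 214 for tetoff against ntg, 14 to 135 for the difference of differences, 20 to 58 for the change from P1 to P21 and 4780 to 5389 for that from P21 to 5 weeks. The count for Mfn2AA against tetoff was 10 without P21_Mfn2AA_10534-8, 12 without P21_Mfn2AA_10534-5 or P21_tetoff_10549-3, 16 without P21_tetoff_10549-4, 17 without P21_tetoff_10549-5, 43 without P21_Mfn2AA_10534-4 and 395 without P21_tetoff_10534-3. For Mfn2wt against ntg it was 45 to 52 without P21_Mfn2wt_10583-2, P21_Mfn2wt_10583-5, P21_ntg_10547-3, P21_ntg_10547-5 or P21_ntg_10547-7, and 145 without P21_ntg_10583-1. For tetoff against ntg it was 118 to 144 without P21_ntg_10547-3, P21_ntg_10547-5, P21_tetoff_10549-4 or P21_tetoff_10549-5. The difference of differences called 14 to 19 genes without P21_Mfn2AA_10534-8, P21_Mfn2wt_10583-2, P21_ntg_10547-1, P21_ntg_10547-5, P21_tetoff_10549-2, P21_tetoff_10549-3 or P21_tetoff_10549-4, and 135 without P21_tetoff_10534-3. The change from P1 to P21 called 20 to 29 without P1_Mfn2AA_10586-3, P1_Mfn2AA_10586-7, P1_Mfn2AA_10619-1, P1_Mfn2wt_10546-3, P21_Mfn2AA_10534-5 or P21_Mfn2AA_10534-8. The transgene difference ran from 1.47 to 1.90 and that of the mitochondrial share from -1.96 to -1.59 percentage points. Neither changed direction. Differences that changed sign were those of Bmp10 (-0.018), Cidec (-1.28) and Plin1 (-0.11) with atrial and adipocyte scores as terms, and of Bmp10 (-0.97), Cidec (-0.98) and Dkk3 (-0.026) under the atrial limit. Of 188 named genes called between Mfn2AA and Mfn2wt, 71 kept their call under every alternative run for them. No paired analysis was possible because Mfn2AA and Mfn2wt libraries share no replicate number. The transgene level, the title number and the genotype differ together, and genes of few counts limit what depth can show.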

Other observations

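Other gene groups of the Mfn2AA and Mfn2wt hearts showed mixed directions. Of 38 genes of extracellular matrix and fibrosis, 5 were called higher and 4 lower by edgeR, with a median log2 difference of -0.01. Over all genes 7.52% were called higher and 6.19% lower. Clu, the secreted chaperone clusterin, had 182 to 416 CPM in Mfn2AA and 103 to 144 CPM in Mfn2wt hearts, without overlap, at 1.48 ± 0.22 (SE). Timp1, an inhibitor of matrix proteases, had 2.96 to 14.7 CPM in Mfn2AA and 2.32 to 5.67 CPM in Mfn2wt hearts, with overlap, at 1.45 ± 0.32. Of 19 immediate early genes 6 were higher, with Fos, a transcription factor induced within minutes of stimulation, at 3.07 to 13.6 CPM in Mfn2AA and 1.75 to 3.58 CPM in Mfn2wt hearts (1.46 ± 0.31). That count was 3 without P21_Mfn2AA_10534-2 and 3 without P21_Mfn2wt_10547-9. Of 26 calcium handling genes 2 were higher and 3 lower, beside the same 7.52% and 6.19% over all genes. Slc8a1, the sodium-calcium exchanger, had 191 to 273 CPM in Mfn2AA and 319 to 409 CPM in Mfn2wt hearts (-0.55), and Cacna2d1, a calcium channel subunit, 58.0 to 97.1 CPM in Mfn2AA and 32.2 to 48.6 CPM in Mfn2wt hearts (1.06). Neither pair of groups overlapped.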
